A study of Mus musculus with 2 samples.

Results

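Peaks of CHOP binding that lie in introns, more than 1 kb and at most 10 kb from the nearest start site of a protein-coding transcript, were examined in mouse liver. They are peaks whose summit falls inside a protein-coding transcript and in no exon of any such transcript. The rule selected 1277 of the 14157 peaks in the list (9.02%). The list comes from 1 chromatin immunoprecipitation library made from pooled liver chromatin of 3 wild-type mice. They had received an intraperitoneal injection of tunicamycin at 1 mg/kg 8 h earlier, a drug that blocks N-linked glycosylation of proteins. The other library, 1 input, was not analysed here. All animals carried the wild-type genotype and received the drug, so no untreated or CHOP-deficient liver was analysed, and with 1 pooled library no spread between animals can be given. The tests below compare peaks with each other, or a peak with its own flank, within that library.

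CHOP, the product of Ddit3, is a basic leucine zipper protein of the C/EBP family that is made when unfolded proteins build up in the endoplasmic reticulum or when the kinase PERK and the factor ATF4 are active. It does not bind the classical C/EBP palindrome well by itself and is found on DNA as a heterodimer with C/EBP or ATF partners, on composite elements that join a C/EBP half-site to an ATF half-site. Introns close to a gene's start often hold enhancers and alternative promoters, and in liver these carry C/EBP, HNF4 and forkhead factors.

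The sequences below are the 101 bases centred on the summit, plus strand, of 9 intronic peaks. They are among those of highest fold that held a C/EBP-family element, lay outside repeat-masked sequence and shared a 16-base word with at most 1 other summit. They are shown because these elements set summits apart from their flanks. Capitals mark matches, on either strand, to 5 elements. These are the C/EBP-ATF composite TGATGCAA, the spaced C/EBP element TTGCNNAA, the CHOP-C/EBP heterodimer element TGCAATNCC, the C/EBP-CRE hybrid TGACGCAA and the C/EBP palindrome TTGCGCAA. A palindrome is also a spaced element, and a composite can overlap a heterodimer element. Bases are from the RefSeq sequence of GRCm38.p6 (mm10).
Nfil3 (chr13:52976808-52976908): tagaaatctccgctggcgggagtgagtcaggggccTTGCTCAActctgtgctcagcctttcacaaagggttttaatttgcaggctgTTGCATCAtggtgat
Rsbn1 (chr3:103915212-103915312): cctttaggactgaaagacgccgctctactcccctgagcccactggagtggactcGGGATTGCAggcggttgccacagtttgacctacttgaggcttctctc
Slc16a10 (chr10:40077732-40077832): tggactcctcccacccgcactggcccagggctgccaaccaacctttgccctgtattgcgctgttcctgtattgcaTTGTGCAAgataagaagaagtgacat
Kyat3 (chr3:142706767-142706867): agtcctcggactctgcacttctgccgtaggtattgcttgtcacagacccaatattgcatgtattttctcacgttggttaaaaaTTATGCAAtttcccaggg
Ak3 (chr19:29046133-29046233): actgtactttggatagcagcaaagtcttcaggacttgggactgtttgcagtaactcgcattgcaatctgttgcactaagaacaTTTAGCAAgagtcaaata
Vmn1r42 and Vmn1r43 (chr6:89874890-89874990): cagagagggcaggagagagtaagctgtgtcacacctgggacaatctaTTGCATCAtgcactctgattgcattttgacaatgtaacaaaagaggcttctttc
Nfe2l1 (chr11:96822724-96822824): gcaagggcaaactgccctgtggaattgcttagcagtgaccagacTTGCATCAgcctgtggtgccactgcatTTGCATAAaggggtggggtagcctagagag
Shtn1 (chr19:59071624-59071724): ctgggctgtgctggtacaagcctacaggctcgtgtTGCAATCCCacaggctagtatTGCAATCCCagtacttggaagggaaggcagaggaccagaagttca
Rhot1 (chr11:80237540-80237640): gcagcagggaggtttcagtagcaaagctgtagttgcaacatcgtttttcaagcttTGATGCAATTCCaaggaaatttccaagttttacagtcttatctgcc
The Nfil3, Vmn1r42 and Vmn1r43, Nfe2l1 and Rhot1 windows held the composite element, which reads TTGCATCA on the other strand. In the Rhot1 window it overlapped the heterodimer element. The Shtn1 window held the heterodimer element at 2 places.

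The highest folds belonged to other peaks. Fold is the authors' value for a peak, the pileup of reads at the summit over the local background, each with 1 added, and the intervals given with it are exact Poisson intervals on the pileup. The highest fold among the intronic peaks was 110 (93.2 to 130) in Gdap2, with a summit 3717 bp downstream of its start. Next came 105 (88.7 to 122) in Atraid, whose nearest start, at 1495 bp, is that of Slc5a6, then 90.7 (75.4 to 108) in Esr1, the estrogen receptor, 90.0 (74.7 to 108) in Asrgl1 and 81.0 (66.5 to 97.7) in Izumo1, a sperm membrane protein. All 5 summits lay in soft-masked sequence, the lower-case repeats of the reference, and these peaks were 314 to 321 bp wide. The Atraid and Izumo1 windows held a spaced C/EBP element, and the other 3 held no C/EBP element.

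Each of these windows contained a run of 16 bases that also occurred at 10 or more other summits of the list. Such a widely shared word was present in 451 of the 1277 intronic peaks (35.3%), and 394 of those 451 summits were soft-masked. It was present in 15 of the 16 intronic peaks of fold 50 or more, in 36 of 52 of fold 30 or more and in 176 of 365 of fold 10 or more. Widths of 290 to 340 bp were found in 208 of the 451 (46.1%), against 102 of the 826 other intronic peaks (12.3%). The 451 had a median fold of 8.25 (quartiles 6 and 14.0), against 6.75 (5.25 and 9.75) for the 826. Only 25 of the 451 held a C/EBP-family element at the summit (5.54%, Wilson 95% interval 3.78 to 8.05), where their flanks held 4.43%. The 451 held the composite element in 2 windows. Where these words come from was not tested, and tests below are given with and without these peaks.

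**Figure D1:**
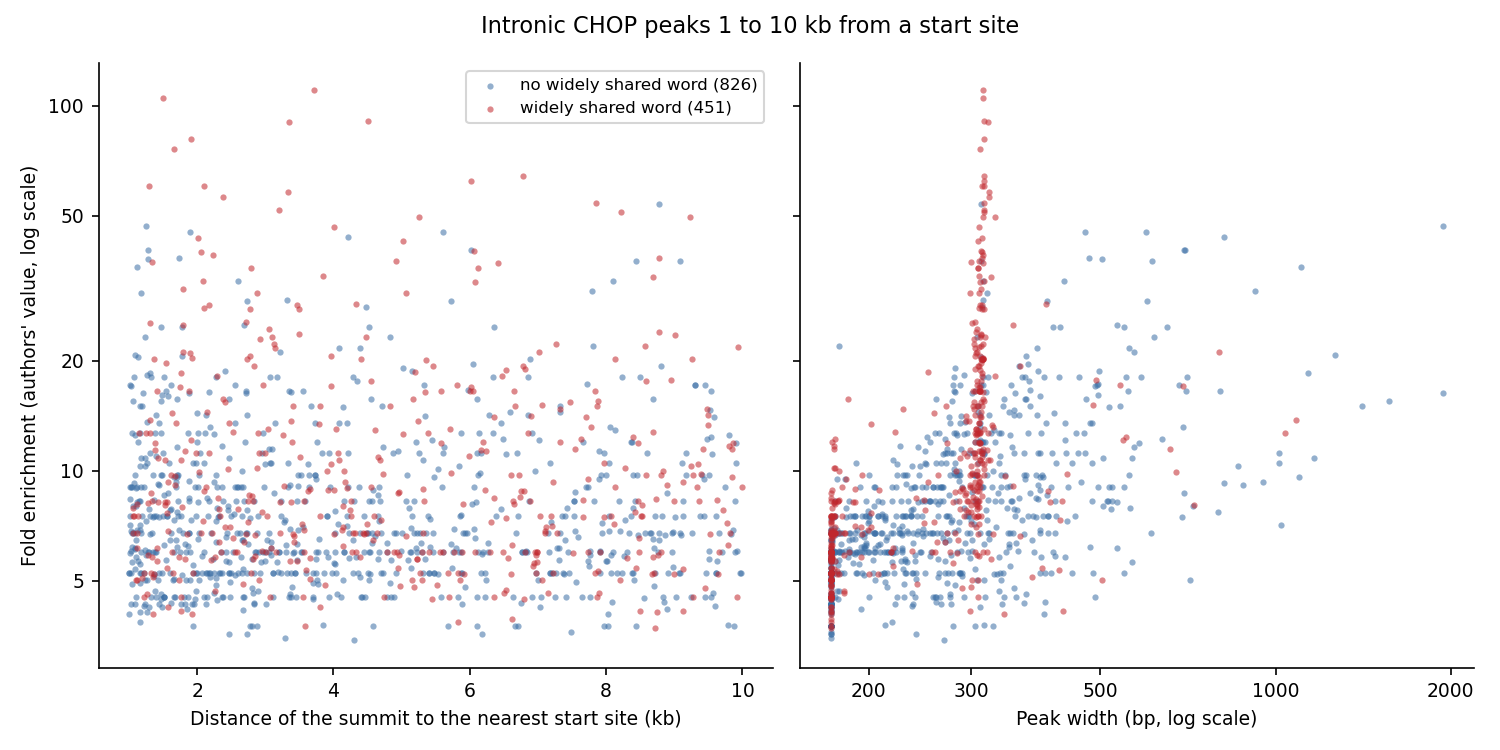
Fold of each of the 1277 intronic peaks (log scale) against the distance of its summit from the nearest start site (left, kb) and against its width (right, bp, log scale). Blue points are the 826 peaks without a widely shared word and red points the 451 with one. Many of the red points form a narrow column near 300 bp that reaches a fold of 110.

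Of the intronic peaks, 365 (28.6%) had a fold of at least 10, where 22.5% of all peaks did. The share was 24.7% for intronic peaks beyond 10 kb, 24.5% for intergenic peaks 1 to 10 kb from a start and 20.7% for promoter peaks within 1 kb, and each of these was lower (Fisher's exact test, Benjamini-Hochberg adjusted p = 0.0180, 0.0435 and 4.43e-09). The difference from every class was smaller and missed the threshold once all peaks with a widely shared word were left out. The shares were then 22.9% for the intronic peaks 1 to 10 kb away, against 21.3%, 21.3% and 20.4%, with adjusted p of 0.512, 0.512 and 0.324 by Fisher's exact test. With peaks of 290 to 340 bp left out instead, the intronic share fell 3.81 percentage points below that of promoters (adjusted p = 0.0213, Fisher's exact test), an alternative chosen after the data were seen.

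At the summits, elements of the C/EBP family were more frequent than 500 bp away. Any of the 5 elements occurred within 50 bp of the summit in 173 of the 1277 intronic peaks (13.5%, interval 11.8 to 15.5), against 55 windows of the same length centred 500 bp to the right (4.31%), and over all peaks of the list the share at the summit was 8.53%. Summit and flank differed by the exact McNemar test over 18 elements and their union (adjusted p = 7.87e-15). Without the peaks that carry a widely shared word, the share was 17.9% at the summit and 4.24% in the flank (adjusted p = 2.48e-17, exact McNemar test).

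The composite element, a site for C/EBP proteins paired with ATF4, had the lowest adjusted p of the 18 single elements. It was present at 55 summits (4.31%, interval 3.32 to 5.56) and in 7 flanks (0.548%), and no peak had it in both (adjusted p = 2.31e-09, exact McNemar test). Among the 826 peaks without a widely shared word it was at 53 summits (6.42%), against 5 flanks (0.605%; adjusted p = 3.32e-10, exact McNemar test). The spaced C/EBP element was at 7.28% of summits and in 3.76% of flanks (adjusted p = 8.94e-04, exact McNemar test), a call lost with only outermost starts counted (2.23 points, adjusted p = 0.0826, exact McNemar test). The heterodimer element was at 21 summits and in 1 flank (adjusted p = 6.95e-05, exact McNemar test), and the hybrid was at 12 summits and in 0 flanks, which allows a share of up to 0.300% (Wilson; adjusted p = 0.00186, exact McNemar test). The heterodimer call was lost among peaks up to 5 kb from a start (1.04 points, adjusted p = 0.0816, exact McNemar test). Without widely shared words the shares at summit and flank were 8.84% and 3.63% for the spaced element, 2.18% and 0.121% for the heterodimer and 1.45% and 0% for the hybrid (adjusted p = 1.72e-04, 3.62e-04 and 0.00186, exact McNemar test).

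Other elements did not separate summit from flank past the threshold. The AP-1 heptamer TGANTCA, bound by FOS and JUN, was at 4.15% of summits and in 2.90% of flanks (adjusted p = 0.269, exact McNemar test). The E-box CACGTG, bound by USF and MYC, was at 1.72% and 1.80% (adjusted p = 1.00, exact McNemar test), and the forkhead element TGTTTAC, bound by FOXA, at 1.96% and 1.33% (adjusted p = 0.510, exact McNemar test). Without widely shared words none of these 3 passed either, with adjusted p of 0.753, 1.00 and 0.401 by the exact McNemar test. The C/EBP palindrome occurred at 0 of 1277 summits, which allows a share of up to 0.300% (Wilson), and at 1 place within 400 bp of them.

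Elements joining C/EBP to a partner's site were gathered at the summit. Within 400 bp of the summits the composite occurred 103 times, of which 61 lay within 50 bp and 34 within 25 bp, while beyond 150 bp there were 2.80 per 100 bp. The heterodimer element occurred 22 times within 50 bp, at a median of 11.5 bp from the summit against 20.5 bp for the composite, and 3.00 times per 100 bp beyond 150 bp. The spaced element occurred 101 times within 50 bp, against 56.2 per 100 bp beyond 150 bp. The AP-1 heptamer occurred 55 times within 50 bp, against 39.2 per 100 bp beyond 150 bp.

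The search for fixed elements was set beside a count of all 8-base words at the 826 summits without a widely shared word. The word with the largest excess over both flanks was TGATGCAA itself, at 53 summits, against 5 right and 1 left flanks. It was followed by TGATGAAA, at 40 summits against 3 and 4. ATTGCATC, which overlaps the composite on the other strand, followed at 31 against 4 and 1, and TGTTGCAA at 26 against 1 and 2. GGATTGCA, which reads TGCAATCC on the other strand and begins like the heterodimer element, was at 23 summits against 0 right and 2 left flanks. These counts are a description, since the words were ranked on the same windows.

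**Figure D2:**
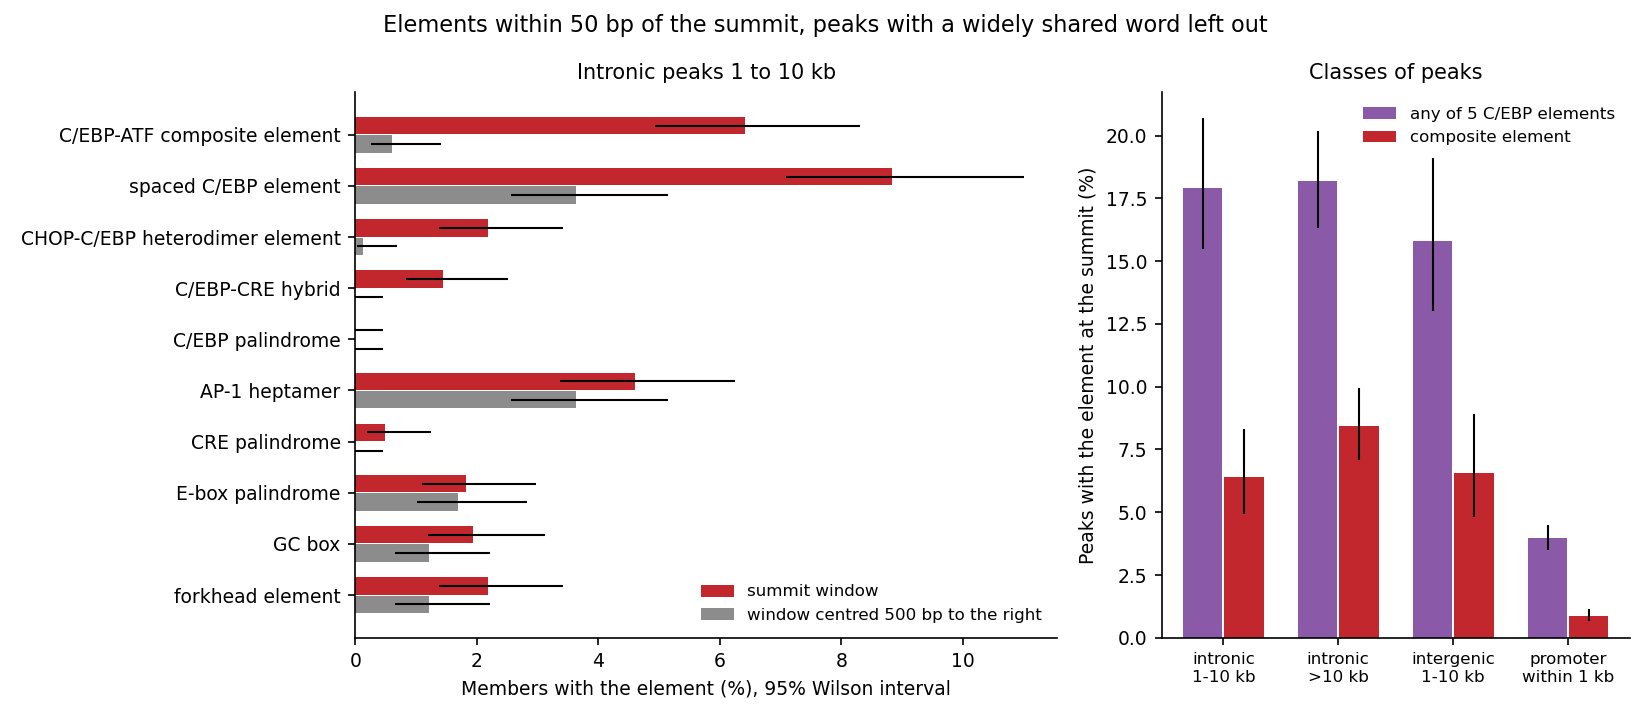
Share of peaks with each element within 50 bp of the summit, peaks with a widely shared word left out, with Wilson 95% intervals. Left, the 826 intronic peaks, summit window in red and flank in grey, where the composite stands at 6.42% against 0.605%; right, any of 5 C/EBP elements (purple) and the composite (red) in 4 classes of peaks, where promoter peaks are lowest for both.

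The intronic peaks near starts differed from promoter peaks in the elements they held. Any C/EBP element was at 13.5% of their summits, against 3.81% of promoter summits (adjusted p = 5.37e-34, Fisher's exact test over 57 comparisons). The composite was at 4.31%, against 0.825% of promoter summits (adjusted p = 2.12e-15, Fisher's exact test). The AP-1 heptamer was at 4.15% against 1.09% (adjusted p = 3.71e-11, Fisher's exact test), and the forkhead element at 1.96% against 0.428% (adjusted p = 1.36e-06, Fisher's exact test). The reverse held for the GC box GGGCGGGG, bound by SP1, at 2.04% against 13.8% (adjusted p = 4.05e-42, Fisher's exact test), and for the E-box, at 1.72% against 5.41% (adjusted p = 5.61e-09, Fisher's exact test). Without widely shared words these 6 differences from promoter peaks kept their direction, with 17.9% against 3.96% for any C/EBP element (adjusted p = 8.01e-41, Fisher's exact test) and at most 9.49e-06 as the adjusted p of the other 5 by Fisher's exact test. The median GC share of the summit window was 48.5% in the intronic peaks, against 74.3% in promoter peaks, and the part of base composition in these differences was not tested.

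No element differed past the threshold between the intronic peaks near starts and either the deeper intronic or the nearby intergenic peaks. Over all peaks, any C/EBP element was at 13.5% of intronic summits near starts, against 12.8% beyond 10 kb and 12.2% of intergenic summits (adjusted p = 0.908 for both), and the composite at 4.31%, against 5.64% and 5.26% (adjusted p = 0.405 and 0.843, Fisher's exact test). Without widely shared words, any C/EBP element was at 17.9% of intronic summits near starts, against 18.2% (interval 16.3 to 20.2) beyond 10 kb, a difference of -0.233 percentage points (adjusted p = 1.00, Fisher's exact test), and 15.8% (13 to 19.1) of nearby intergenic summits (adjusted p = 0.833, Fisher's exact test). The composite was at 6.42% (interval 4.94 to 8.30), against 8.42% beyond 10 kb (adjusted p = 0.328, Fisher's exact test) and 6.57% in intergenic peaks (adjusted p = 1.00, Fisher's exact test). With all peaks kept and only the outermost start of each gene counted, the composite was less frequent near starts, with differences of -2.70 points from the deeper peaks (adjusted p = 8.97e-04) and -2.63 from the intergenic ones (adjusted p = 0.0153, Fisher's exact test). Under the same setting the GC box was more frequent near starts, by 2.44 points over the deeper peaks (adjusted p = 5.73e-04, Fisher's exact test) and 2.25 over the intergenic ones (adjusted p = 0.0374, Fisher's exact test).

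The number of intronic peaks per kb fell away from the start. There were 292 peaks between 1 and 2 kb, 160 per kb between 2 and 5 kb and 101 per kb between 5 and 10 kb, and without widely shared words 213, 104 and 60.2 per kb. How much intron lies in each step was not counted. The share with a C/EBP element was 19.2% (14.5 to 25.1), 17.9% (14.1 to 22.6) and 16.9% (13.1 to 21.6) over the same steps without widely shared words, so the intervals overlap throughout. Median fold was 7.35, 6.51 and 6.75, again without such words. The median GC share of the window was 51.5%, 47.5% and 46.5%.

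Among the 826 peaks without a widely shared word, the share with a C/EBP element was highest in the step of highest fold. A C/EBP element was at 13 of 123 summits of fold below 5 (10.6%, interval 6.28 to 17.2), 93 of 514 of fold 5 to 10 (18.1%, 15 to 21.7), 29 of 154 of fold 10 to 20 (18.8%, 13.4 to 25.7) and 13 of 35 of fold 20 or more (37.1%, 23.2 to 53.7). In the flanks it was at 4.88%, 4.67%, 3.25% and 0%. When only the 609 peaks that share no 16-base word with any other summit were kept, the highest step held 8 of 18 (44.4%), and with widths of 290 to 340 bp removed it held 11 of 26 (42.3%). The composite alone was not highest in the last step of the 826, at 0.813%, 6.81%, 9.09% and 8.57% (interval 2.96 to 22.4). In the highest step of the smaller sets the composite was at 5.56% and 11.5% of summits, against 11.3% and 10.3% at fold 10 to 20. These shares describe 1 list and were not tested as a trend. Of the 826 peaks, 516 (62.5%) rested on a pileup of 10 reads or fewer, and the part of read number in these shares was not tested.

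**Figure D3:**
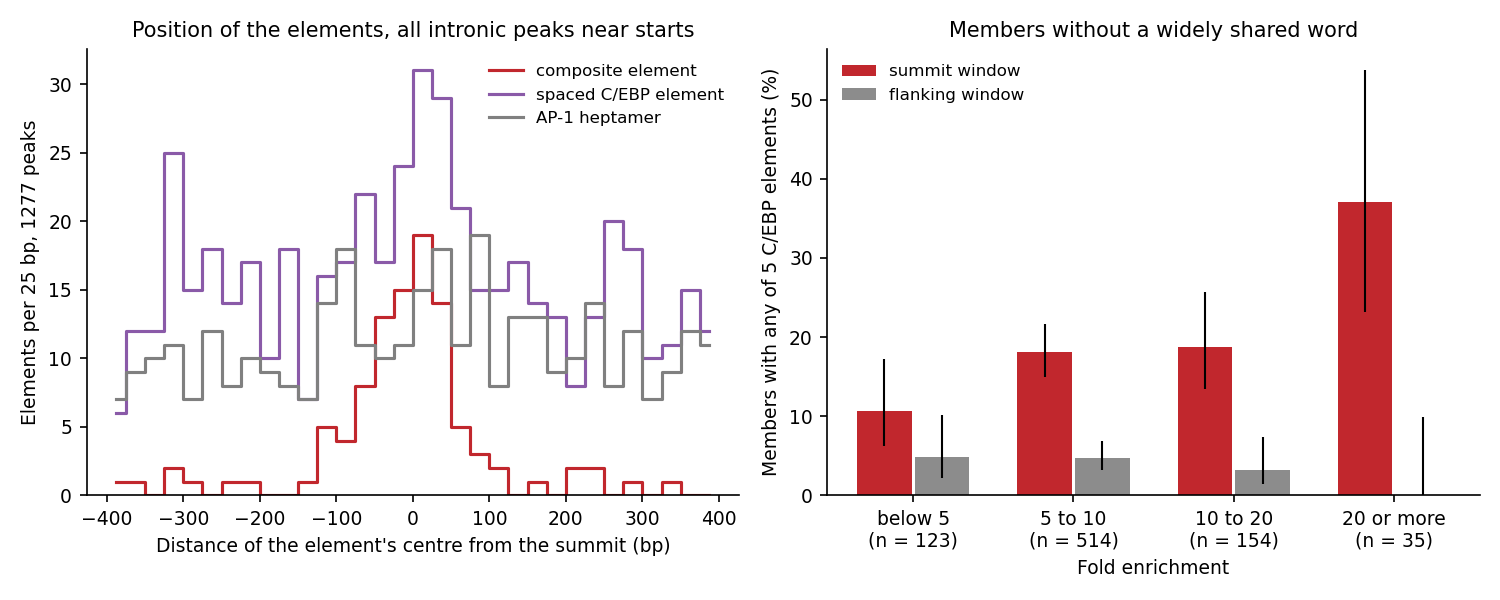
Left, number of elements per 25 bp against their distance from the summit in the 1277 intronic peaks; the composite (red) rises from near 0 to 19 per bin at the summit, while AP-1 (grey) stays between 7 and 19 and the spaced C/EBP element (purple) peaks at 31. Right, share of the 826 peaks without a widely shared word that hold a C/EBP element, by fold, at the summit (red) and in the flank (grey), with Wilson 95% intervals; the summit share is 10.6% in the lowest step and 37.1% in the highest.

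The peaks of highest fold without a widely shared word lay in genes of varied function. Nfil3, a bZIP repressor at the output of the circadian clock, held a peak of fold 43.6 (33.3 to 56.2; 58 reads) in intron 1, 4215 bp downstream of its start, with a composite, a spaced C/EBP and an AP-1 element. A further 2 peaks of intron 1, the weaker chosen after its value was seen, had folds of 10.8 and 6.75, and the promoter peak of Nfil3 had a fold of 30.7. Rai1, a nuclear protein, held the widest of the leading peaks at 1942 bp, with a fold of 46.7 (37.8 to 57.2) and no C/EBP element. This peak is intronic by its summit, which lies at 60106428 of chromosome 11, 1251 bp downstream of the start of Rai1. The peak runs from 60104846 to 60106787, so it reaches further than 1251 bp to the left of its summit. A start on that side lies inside the peak. The GC share of this peak's summit window was 79.2%, against a median of 48.5% in the 1277 intronic peaks and 74.3% in promoter peaks. Csrp3, a LIM protein of muscle, had 45.2 (35.4 to 56.8), and a separate intronic peak of Gdap2 had 45.1 (35.0 to 57.3). The corepressor scaffold Sin3a had 40.1 (31.0 to 51.2) at 1276 bp and Ciapin1, needed for cytosolic iron-sulfur proteins, 37.9 (29.8 to 47.6) at 1285 bp.

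The list went on with the zinc finger factor Rreb1 at 37.5 (27.9 to 49.3), Rsbn1 at 36.1 (27.8 to 46.3) with a heterodimer element, and the Golgi protein Golim4 at 33.1 (25.7 to 41.9). Epo, the erythropoietin gene, held a peak of 31.1 (24.1 to 39.5), 7788 bp from the protein-coding start of Pop7 and 53 bp from the start of a transcript that is not protein-coding. Slc16a10, a transporter of aromatic amino acids, had 30.7 (22.2 to 41.6) and Kyat3, a kynurenine aminotransferase, 29.2 (20.9 to 39.9), each with a spaced C/EBP element. The mitochondrial enzymes Ak3 and Mdh2 both had 24.7 (17.2 to 34.6). The intervals of neighbouring peaks in this order overlap, so the order among them is not fixed by counting error.

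A width of 290 to 340 bp, found in 46.1% of the peaks with a widely shared word, also occurred in several leading peaks without one. Acsl5, an acyl-CoA synthetase, had the highest fold of them, 53.8 (42.4 to 67.5), with a width of 312 bp in soft-masked sequence and a word in common with 6 other summits. Il1r1, the interleukin-1 receptor, had 37.5 (27.9 to 49.3) at 312 bp, Tbc1d1 29.4 (21.4 to 39.5) at 314 bp and Galnt16 28 (20.9 to 36.9) at 313 bp. The Slc16a10 peak, of fold 30.7, was 319 bp wide, and its window shared no 16-base word with another summit. Rfx5 had 56.2 (44.3 to 70.4), the highest fold outside soft-masked sequence, and it carried a widely shared word and was 322 bp wide.

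Some peaks drew attention only after their values were seen. The bZIP factor gene Nfe2l1, which encodes an activator of proteasome genes that is anchored in the endoplasmic reticulum, held a peak of 23.2 (15.9 to 32.9) with a composite and a spaced element, 49 bp from the start of a noncoding transcript. Usf2 held a peak of 40.3 (30.7 to 51.8) with a spaced element, and its nearest start, at 6015 bp, was that of Hamp, the iron hormone hepcidin. Klb, the co-receptor for FGF21, held a peak of 19.4 (13 to 28.2). The Usf2 and Klb summits were both soft-masked, and the Usf2 window shared a 16-base word with 5 other summits.

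**Figure D4:**
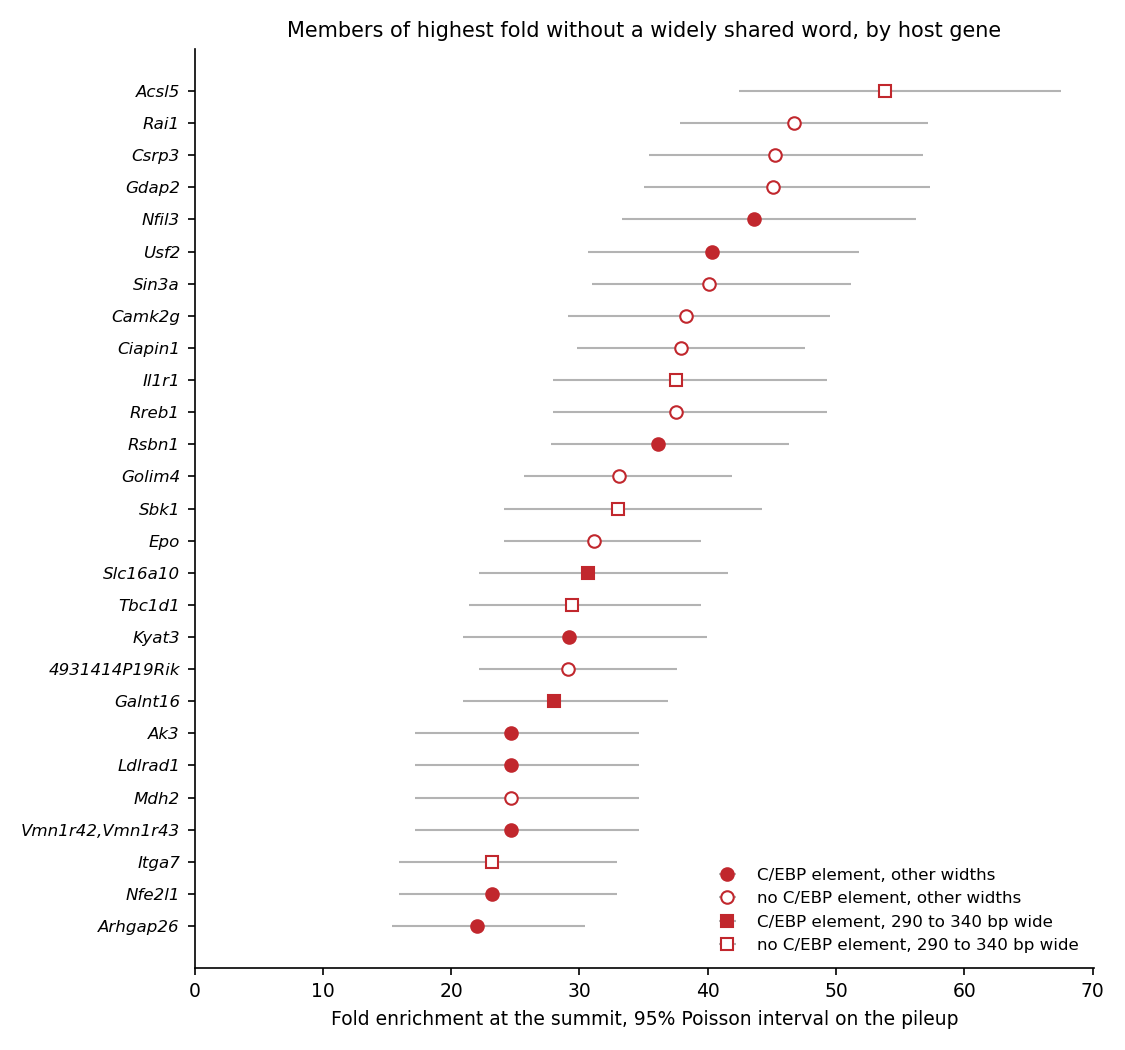
Fold of leading intronic peaks without a widely shared word, by host gene, with 95% Poisson intervals on the pileup. Filled symbols hold a C/EBP-family element at the summit and squares are 290 to 340 bp wide; Acsl5, at the top with 53.8, is a square without an element.

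The 1277 peaks lay in 1142 host genes, 5.22% of the 21866 protein-coding genes, and those without a widely shared word in 755 (3.45%). Of the hosts, 992 held a single such peak, 131 held 2 and 15 held 3. Dnmbp, Uox and Slc38a4 held 4 each. Gm20388, a gene model whose peaks spread from position 120489452 to 123870027 of chromosome 8 across many other genes, held 8. In Uox, urate oxidase, and Slc38a4, an amino acid transporter, none of the 4 peaks had a widely shared word, with folds of 5.25 to 9 and of 3.75 to 6.75. The Uox peaks with summits at 146591222 and 146599110 of chromosome 3 also lay in Dnase2b, whose start was the nearest to the former. In Dnmbp 3 of the 4 peaks had one.

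The rule favours early introns of the host gene, so the positions are a description. For 1181 of 1277 (92.5%) the nearest start belonged to the host gene, and 932 of those 1181 (78.9%) lay downstream of that start, while 249 lay upstream of it, inside a longer transcript. Intron 1 of at least 1 transcript held 820 (64.2%), while 592 (46.4%) lay in intron 1 of every transcript that held them and 457 (35.8%) in later introns of all of them. Without widely shared words, a C/EBP element was at 18.6% of summits in intron 1 (interval 15.6 to 22.1), 12.1% in intron 2 (7.47 to 19.0) and 20.1% in later introns (14.4 to 27.4).

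A start of a transcript that is not a protein-coding one lay within 500 bp of 87 intronic summits near starts (6.81%), against 3.60% of the summits beyond 10 kb (adjusted p = 4.88e-05, Fisher's exact test) and 7.47% of the nearby intergenic summits (adjusted p = 0.600, Fisher's exact test). Without widely shared words the shares were 7.87%, against 3.93% (adjusted p = 1.91e-04, Fisher's exact test) and 9.06% (adjusted p = 0.431, Fisher's exact test). With only the outermost start of each gene counted, the difference from the intergenic peaks turned to 7.10 points in the other direction (adjusted p = 1.20e-06, Fisher's exact test). The transcripts counted include noncoding ones of protein-coding genes, and the classes were chosen by distance from protein-coding starts. How much intron near and far from starts lies beside a noncoding start was not counted, so the part of the rule in these differences was not tested.

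Of the host genes, 566 of 1142 (49.6%) also had a promoter peak, where 27.9% of all protein-coding genes had one. The share was 46.6% of the 1367 genes that had an intronic peak beyond 10 kb and none nearer, a difference of 2.96 percentage points (p = 0.149, Fisher's exact test), and without widely shared words the shares were 49.9% and 47.2% (p = 0.265, Fisher's exact test). It passed the threshold when peaks sharing any word were left out, with a difference of 5.05 points (p = 0.0311, Fisher's exact test), or peaks of 290 to 340 bp, with 5.28 points (p = 0.0193, Fisher's exact test), both chosen after the data were seen, and with the starts of all annotated transcripts, with 6.13 points (p = 0.00488, Fisher's exact test). With only outermost starts the difference was -0.488 points (p = 0.811, Fisher's exact test). In 333 of the 670 peaks whose host had a promoter peak (49.7%), the intronic fold was the higher, and in 208 of 470 (44.3%) without widely shared words. Host genes are long, with a median span of 45.4 kb, against 17.4 kb for all protein-coding genes.

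The 6 gene lists with the highest shares of genes with an intronic peak near a start, counted without widely shared words, are given with the share of all genes. Fatty acid oxidation and peroxisomes had 5 of 20 genes and the circadian clock 5 of 20, each 25%, set against 3.45% of all genes. Bile acid and P450 genes had 5 of 24 (20.8%), lipid synthesis 5 of 25 (20%), complement and coagulation 5 of 27 (18.5%), and insulin, glucose and glycogen 4 of 22 (18.2%). The lists were not tested for enrichment, and their median gene spans of 23.5 to 49.9 kb in these 6 exceed the 17.4 kb of all genes. Of genes with a promoter peak, 6.70% held such an intronic peak, and of genes without one, 2.19%. The median span was 31.0 kb in the former and 13.5 kb in the latter, and the part of gene length was not tested.

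In the fatty acid list, Cpt1a, which carries fatty acids into mitochondria, had 13.2 (8.29 to 20). Acsl5 held 3 peaks, the weakest of them at 6.75 with a composite element. Acsl5 and Acaa2 had no promoter peak, and 5 of the 20 genes of the list had one. In the clock list, after Nfil3, Rora had 12.7 (7.61 to 20.2) with a composite element and Tef 11.2 (6.43 to 18.2). All 5 genes of this list with an intronic peak, Per2 and Per3 among them, had a promoter peak too. So did 18 of the 20 genes of the list (90.0%), where 27.9% of all protein-coding genes had one.

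Bile acid genes included Abcb4, the phospholipid transporter of bile, at 6.75 (3.34 to 12.6) with overlapping composite and heterodimer elements, and Ugt1a1, with the other genes of the Ugt1a locus, at 6.20 (3.17 to 11.2). The fold of 37.1 (29.0 to 46.9) in Cyp27a1 came with a widely shared word and a width of 314 bp. Among lipid genes Gpam had 9.75 (5.40 to 16.5), Mlxipl 8.31 (4.50 to 14.3) and Srebf1, the master factor of lipogenesis, 5.25 (2.40 to 10.5) with a composite element, while the 27.8 (21.7 to 35.1) of Acacb carried a widely shared word. In the glucose list Lpin1 had 12.6 (7.62 to 19.7), Foxo1 11.2 (6.94 to 17.1) and Irs1 9.75 (5.40 to 16.5), and the peak of G6pc at 7.95 (4.40 to 13.4) carried such a word. The nearest start to the Irs1 peak, at 9512 bp, was that of Gm9747. The summit of that peak was soft-masked, and its window shared a 16-base word with 8 other summits. Of the complement and coagulation genes, F5, coagulation factor V, had 7.5 (3.84 to 13.6), while the peak of F11, coagulation factor XI, at 12.4 (7.96 to 18.5) carried a widely shared word.

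Among hepatocyte factors, 3 of 25 genes (12.0%) held a peak without a widely shared word, where 3.45% of all protein-coding genes did. Nr1h4, the bile acid receptor, held 2, at 16.1 (11 to 22.8) and 11.2 (6.49 to 18.4), and had no promoter peak. Hnf4a also held 2, at 6 (2.86 to 11.6) with a spaced C/EBP and a forkhead element and at 4.50 (1.97 to 9.50), and Foxa3 had 5.71 (2.72 to 11). Alb carried a widely shared word in its peak of 15 (9.57 to 22.6). No such peak lay in Fgf21, Cebpa, Cebpb, Ppara, Trib3, Ddit3, Atf3 or Vegfa.

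Stress response, protein folding, degradation and amino acid supply each had a list. Of 28 genes of the integrated stress response, 21 had a promoter peak, where 27.9% of all protein-coding genes had one. An intronic peak near a start without a widely shared word was found in 3 of the 28 (10.7%), and in 3.45% of all protein-coding genes. Bbc3, which encodes the BH3-only protein PUMA, held such a peak at 9.73 (6.05 to 14.9) beside one of 39.9 (30.8 to 50.8) with a widely shared word. Gdf15, a secreted stress hormone, had 5.25 (2.40 to 10.5), and Bcl2l11, which encodes BIM and was added after its value was seen, had 4.60 (2.60 to 7.63). Of 20 chaperone and folding genes 16 had a promoter peak and 1 an intronic one, Manf, at 3.75 (1.57 to 8.43) in an intron that also lies in Dcaf1. The nearest start to that peak, at 2877 bp, was that of Dcaf1. Of 20 genes of degradation and transport 3 (15%) had one, Ube2g2 at 9.21 (5.10 to 15.6), Sel1l at 8.25 (4.35 to 14.5) and Derl1 at 6 (2.86 to 11.6), and among 22 genes of amino acid supply 1 did, Aldh18a1 at 5.25 (2.40 to 10.5), with a promoter fold of 46.9.

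The remaining lists had shares of 0 to 16%, set against 3.45% of all protein-coding genes. Secreted plasma proteins had 4 of 25 (16%), with Serpina1c at 12.7 (7.61 to 20.2), urea cycle and amino acid breakdown 3 of 24, with Cps1 at 5.25 (2.40 to 10.5), inflammatory signalling 3 of 20, and autophagy and mTORC1 3 of 22, with the ATG8 family gene Gabarapl1 at 19.6 (13.4 to 27.9). NRF2 and antioxidant genes had 2 of 20, apoptosis 2 of 20, and AP-1 and immediate early genes 1 of 20. The C/EBP-CRE hybrid was at the summits in Egr1, an immediate early factor, with a fold of 9 (4.87 to 15.5), and in Bid, a BH3-only protein gene, with 7.5 (3.84 to 13.6). Of the markers of other cells, none of 15 macrophage and none of 10 cholangiocyte genes held an intronic peak near a start. Pecam1 of 15 endothelial genes had 6.16 (3.05 to 11.5), Tagln of 15 stellate cell and fibroblast genes 14.2 (8.75 to 22.1) and Nlgn1 of 20 neuronal genes 3.75 (1.57 to 8.43). In bulk liver, the cells a peak comes from cannot be told apart.

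**Figure D5:**
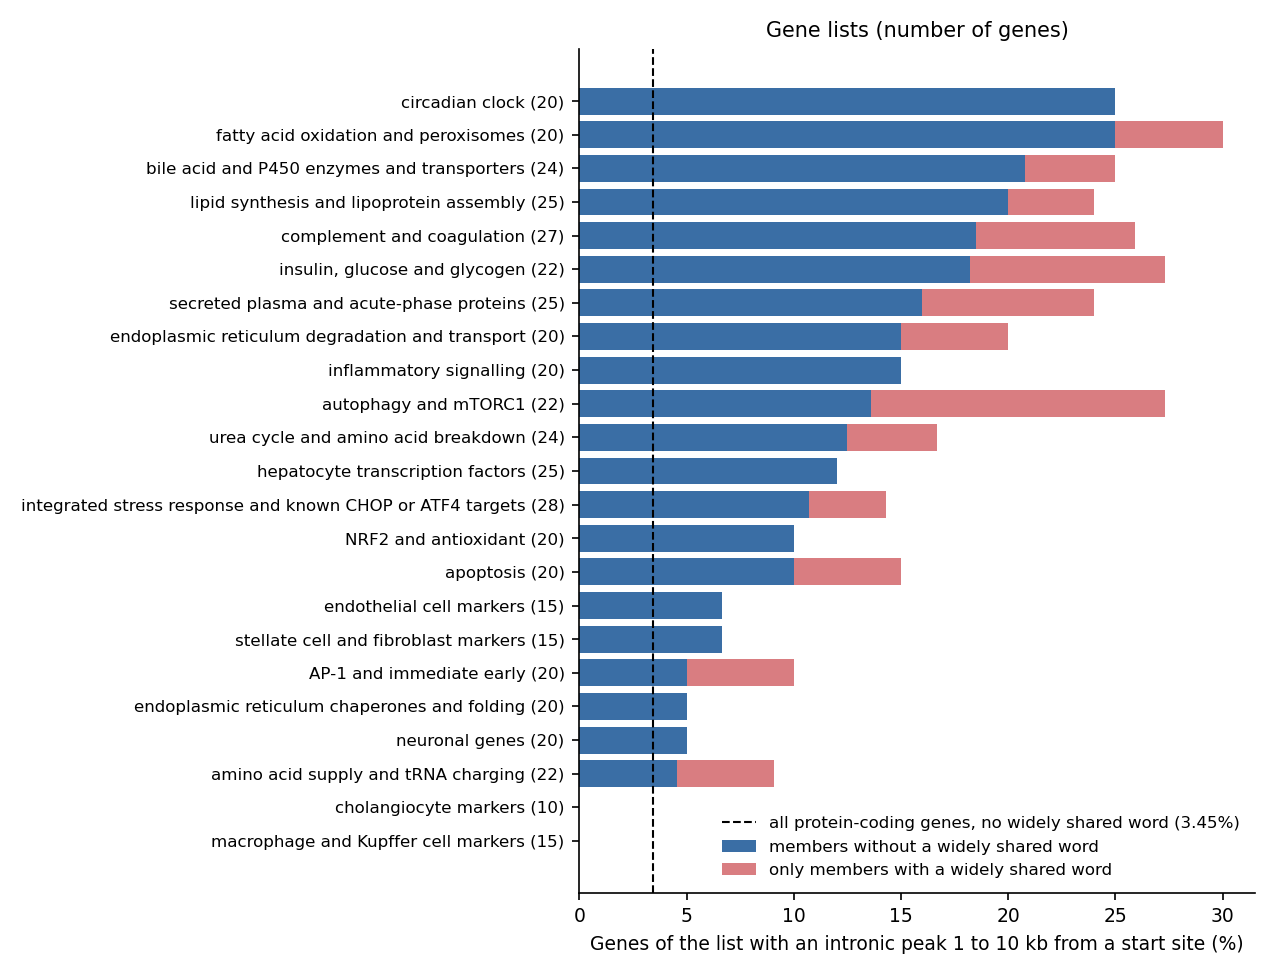
Share of the genes of 23 lists with an intronic peak 1 to 10 kb from a start, through peaks without a widely shared word (blue) or only through peaks with one (red), set against 3.45% of all protein-coding genes (dashed line). Fatty acid oxidation and the circadian clock stand at 25% in blue, and macrophage and cholangiocyte markers at 0.

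Members of these lists that held the composite element at the summit are shown, in the same format as above, because they place the element in named liver genes. Cp, which encodes ceruloplasmin, was added after its values were seen.
Rora (chr9:69288251-69288351): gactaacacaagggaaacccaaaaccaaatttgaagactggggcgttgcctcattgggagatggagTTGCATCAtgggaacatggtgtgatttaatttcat
Cp (chr3:19976092-19976192): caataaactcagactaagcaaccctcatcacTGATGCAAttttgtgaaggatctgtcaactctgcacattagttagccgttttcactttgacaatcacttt
Acsl5 (chr19:55257888-55257988): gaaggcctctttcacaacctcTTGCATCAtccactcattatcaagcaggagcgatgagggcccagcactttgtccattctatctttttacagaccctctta
Abcb4 (chr5:8902235-8902335): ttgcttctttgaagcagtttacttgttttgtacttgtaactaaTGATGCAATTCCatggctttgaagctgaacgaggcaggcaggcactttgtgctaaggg
Cps1 (chr1:67123981-67124081): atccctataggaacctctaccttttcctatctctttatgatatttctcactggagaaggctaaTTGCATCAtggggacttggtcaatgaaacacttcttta
Srebf1 (chr11:60200918-60201018): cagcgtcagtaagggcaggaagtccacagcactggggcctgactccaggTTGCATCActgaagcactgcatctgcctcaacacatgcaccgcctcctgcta
The Cps1 and Srebf1 peaks rested on 6 reads each, those of Acsl5 and Abcb4 on 8, that of Cp on 9 and that of Rora on 16. The listed genes held 94 intronic peaks near starts, of which 72 had no widely shared word. A C/EBP element was at 16 of those 72, where it was at 148 of all 826 such peaks (17.9%). The composite was at 7 of the 94 summits, where it was at 55 of all 1277 (4.31%). These shares were not tested against each other.

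The distance limits cut through a continuous range. Just inside them lay Gse1 and Cps1, both at 1005 bp with folds of 4.05 and 5.25, and 2900026A02Rik at 9983 bp and Erc1 at 9993 bp with 5.25 and 9. Just outside lay Polr2f at 999 bp and Pdzph1 at 1000 bp with 9.52 and 10.5, Lrch1 at 10010 bp with 6 and Greb1l at 10012 bp with 4.50.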

How the data were processed

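CHOP was immunoprecipitated from pooled liver chromatin of 3 mice. Per the labels' protocols, Bowtie placed the reads on mm10 (at most 2 mismatches), copies of a read beyond 2 per position and strand were dropped, which can limit the height of narrow peaks, reads were filtered with SAMtools 1.9 and Sambamba 0.7.1, and peaks were called with MACS2 2.1.2. The aligner's version and the library's depth are not given in the sources used here.

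The authors deposited for each peak a fold enrichment, −log10 p and −log10 q values, a score and a summit offset; the score was not used. Fold served to describe and rank peaks. The pileup was solved from fold and −log10 p (largest residual 3.13e-05), and its median in the 1277 intronic peaks was 10 reads (4 to 172). Poisson intervals hold the background fixed and, like Wilson intervals (95%), cover counting error only. In 582 intronic peaks (45.6%) the background was within 0.001 of its minimum of 0.333 reads.

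Summits were placed on GENCODE M21 models, with sequence from GRCm38.p6. A set of 18 elements was searched on both strands within 50 bp of the summit, and in a flank 500 bp to the right. Beside those spelled out in the report, they are the CRE TGACGTCA, NF-Y box CCAATNAG, ETS element CCGGAAGT, HNF4 element CAAAGTCCA and STAT5 palindrome TTCCNGGAA, and the HNF1, nuclear receptor DR1, NFI and CTCF elements. Summit and flank were compared by exact McNemar tests and classes by Fisher's exact tests, two-sided, with Benjamini-Hochberg adjustment within each family at 0.05. Tests compare regions of 1 library, not animals. Windows that share sequence are not independent. Alternatives changed the distance limits, start sites, peak threshold, window, flank, fold limit and repeats.

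Peaks named are the 20 of highest fold outside soft-masked sequence and the 5 of highest fold inside it, up to 4 per gene list, those in 10 set genes, those of the 5 genes with most peaks, and those at the distance limits; some of these are not reported here. Members and lists (23 lists, 479 entries, all matched) were chosen with earlier results of these data known. Functions were tested on simulated data. Python 3.11.15, numpy 2.4.6, pandas 2.3.3, scipy 1.17.1, pysam 0.24.0 and matplotlib 3.10.9 were used.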

Additional observations from a re-analysis of the deposited data

How the results depend on the processing

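The excess of the composite element and of any C/EBP element at summits over flanks, and over promoter peaks, kept its direction and its side of the threshold under every alternative run, as did the excess over deeper intronic peaks of summits near a noncoding start. That last comparison is between classes chosen by their distance from protein-coding starts, and the part of this rule in it was not tested. Differences below are in percentage points, intronic peaks near starts minus the named class, by Fisher's exact test. Leaving out peaks that share any 16-base word, or peaks 290 to 340 bp wide, was chosen after the data were seen. The causes of these changes were not tested.

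The number of peaks was 771 up to 5 kb, 779 without soft-masked summits, 826 without widely shared words and 609 without any shared word. The excess of fold 10 or more over deeper intronic peaks lost the threshold up to 5 kb (3.07), with outermost starts (2.34), without soft-masked summits (2.04), without widely shared words (1.63), without any shared word (1.59) and at a fold of 20 (1.26). Over intergenic peaks it lost it up to 5 kb (2.58), beyond 2 kb (3.96), with outermost starts (3.05), with all annotated starts (2.54), without soft-masked summits (0.355), without widely shared words (1.57), without any shared word (2.06) and without the 290 to 340 bp peaks (0.573), and at a fold of 20 it reversed (-0.424). Over promoters it lost it without soft-masked summits (2.01), widely shared words (2.48) or any shared word (1.12), and reversed without the 290 to 340 bp peaks (-3.81, adjusted p = 0.0213, Fisher's exact test).

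Any C/EBP element against deeper intronic peaks reversed at fold 5 or more (-0.103), with outermost starts (-1.70), without soft-masked summits (-0.831) and without widely shared words (-0.233), and against intergenic peaks with outermost starts (-1.27). With outermost starts the composite passed the threshold against both (-2.70 and -2.63), and against intergenic peaks it reversed without the 290 to 340 bp peaks (0.0594). The AP-1 heptamer against deeper intronic peaks reversed up to 5 kb (-0.0575), with outermost starts (-0.0158), and without soft-masked summits (-0.497), widely shared words (-0.230) or any shared word (-1.41). The E-box reversed against the same peaks at fold 5 or more (0.0397), up to 5 kb (0.0396), with outermost starts (0.849), and without soft-masked summits (0.0178), widely shared words (0.0907) or any shared word (0.0952). Against intergenic peaks it reversed at −log10 q of 5 or more (0.0900), fold 5 or more (0.172), beyond 2 kb (0.186), with outermost starts (0.758) and with all starts (0.105), as did the GC box with outermost starts (2.25, adjusted p = 0.0374, Fisher's exact test).

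Against flanks, the heterodimer element lost the threshold up to 5 kb (1.04) and the spaced element with outermost starts (2.23), and the GC box passed it against deeper intronic peaks with outermost starts (2.44).

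Summits near a noncoding start, against intergenic peaks, reversed up to 5 kb (0.548), with outermost starts (7.10, adjusted p = 1.20e-06, Fisher's exact test), within 1 kb (2.15) and without any shared word (0.121). The promoter peak of host genes reversed with outermost starts (-0.488) and passed the threshold with all annotated starts (6.13), without any shared word (5.05) and without the 290 to 340 bp peaks (5.28). No paired analysis was possible because there is 1 library. With a median pileup of 10 reads, peaks of low fold carry wide intervals, and fold intervals take the local background as fixed.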
